A study of Mus musculus with 12 samples.

Results

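The comparison described here was the effect of losing *Isl2* on transcript levels in the ventral spinal cord of the mouse embryo, taken over the brachial (forelimb) and lumbar (hindlimb) levels together. All 12 of the 12 RNA-seq libraries of the series entered it. The 6 libraries of *Isl2* -/- (knockout, KO) embryos were set against the 6 libraries of *Isl2* +/- (heterozygote, Het) embryos, with 3 libraries of each genotype at each level, and the level was a term of the model. The study's methods give 3 animals per genotype, so some brachial and lumbar libraries may come from the same embryos. Which embryo a library came from is not known here. Every embryo was at E12.5 (embryonic day), and the cords were trimmed around an *Hb9::GFP* reporter, which lights up motor neurons, so that the tissue held the cells of the ventral cord and not motor neurons alone. The control embryos carried one disrupted *Isl2* allele as well, so the comparison was of no intact copy with a single intact copy, and no wild-type library was analysed here. Levels are given as TPM (a transcript level per length, scaled to a fixed total per library) after median-of-ratios rescaling between libraries, for the 14940 genes whose mean was at least 1 TPM. Effects are differences of log2(TPM + 0.1), KO minus Het.

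Isl1 and Isl2 are LIM homeodomain transcription factors that are switched on as motor neurons leave the cell cycle. Such factors act in combinations that set which motor column and, with Hox and ETS factors, which motor pool a neuron joins, and a pool in turn is defined by the muscle it innervates. Signals from the periphery, among them neurotrophins and GDNF, further shape the genes that a pool expresses.

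Aligned depth was 4.48 to 6.64 Gb per library, lowest in brachial KO library 3. Small structural RNAs took 23.7% to 38.2% of the TPM of a library, with the lowest share in brachial KO library 2, whose size factor was the highest at 1.25 against 0.896 to 1.09 in the others. Y-linked transcripts were on in 3 of the 6 Het and 4 of the 6 KO libraries. Among Het libraries they were on in 2 of 3 brachial but 1 of 3 lumbar ones. The Het libraries therefore cannot all come from the same 3 embryos sampled at both levels. Motor neuron markers were detected in every library, with *Mnx1* (the gene of Hb9) at 37.4 to 66.9, *Isl1* at 45.1 to 69.6 and *Chat* at 5.08 to 10.5 TPM. Of the listed sensory neuron markers 11, and of the 21 skeletal muscle markers 17, were under a mean of 1 TPM, while red blood cell markers were abundant in every library, at a sum of 2530 to 7180 TPM. The p-values treat the libraries as separate samples and measure the spread between them.

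*Isl2* itself was lower in KO but was not lost. In brachial cords it stood at 8.69, 8.29 and 9.68 TPM in the Het libraries and at 6.01, 7.25 and 4.46 in the KO libraries. In lumbar cords the Het libraries held 10.3, 8.40 and 9.39 TPM and the KO libraries 7.30, 6.51 and 8.21. The genotypes did not overlap at either level, and the effect over both was -0.48 ± 0.12 (SE), or -0.78 on coverage in place of TPM. It did not pass the test across all genes (limma, adjusted p = 0.276). An exact two-sided permutation test within levels gave p = 0.005, the smallest value its 400 arrangements allow. That value follows from the lack of overlap at both levels and adds nothing to it. The allele replaces part of the gene with a neomycin cassette, and these gene-level values cannot leave out the exons that were removed, so the level of *Isl2* is a limited check of the genotypes.

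The genes that changed in the same way at both levels were few. At an adjusted p under 0.05, 4 genes fell in KO, which is 0.0268% of the genes tested, and 0 rose, which is 0%. The 4 were *Uts2b*, *Pts*, *Ntf3* and the small nuclear RNA gene *Gm22513*. When same-numbered brachial and lumbar libraries were averaged as if from 1 embryo, 1 gene was lower, and with that number as a random block 5 were. At an unadjusted p under 0.05 limma called 1289 genes lower (8.63%) and 917 higher (6.14%), so lower genes were 58.4% of these calls. That split depended on the scaling: with TPM as deposited, 149 genes were lower and 1841 higher, and lower genes were 7.49% of the calls. It also depended on single libraries, since without brachial KO library 3 the counts were 804 and 510, and without brachial Het library 3 they were 827 and 524. Without lumbar KO library 2, 1425 genes were higher.

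*Uts2b* encodes urotensin 2B, a small peptide hormone related to urotensin 2, and it had the lowest p of all genes. Its brachial Het libraries held 25.2, 25.0 and 25.9 TPM and its brachial KO libraries 12.4, 11.8 and 11.4. Its lumbar Het libraries held 21.7, 21.5 and 22.5 TPM and its lumbar KO libraries 9.30, 8.81 and 11.1. Every KO library was below every Het library of either level, and *Uts2b* fell by 1.13 ± 0.06 (SE) on the log2 scale (adjusted p = 2.27e-06). The effects at the brachial and lumbar levels, -1.09 and -1.17, differed by -0.08 (95% interval -0.35 to 0.20, limma). *Uts2b* passed the threshold under each of the 27 alternatives that were run.

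*Ntf3* encodes neurotrophin-3, a trophic factor for sensory and motor neurons. In brachial cords it was at 20.5, 21.1 and 21.7 TPM in Het and at 14.5, 14.4 and 15.1 in KO. In lumbar cords it was at 26.6, 22.9 and 27.5 TPM in Het and at 13.6, 19.9 and 15.2 in KO. All 6 KO libraries lay below all 6 Het libraries, and *Ntf3* fell by 0.60 ± 0.09 (SE) on the log2 scale (limma, adjusted p = 0.0429). Its brachial effect was -0.52 and its lumbar effect -0.67. The call held in 10 of 27 alternatives, and the adjusted p ranged from 0.0123 to 0.312 over them.

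*Pts* encodes the synthase that makes 6-pyruvoyl-tetrahydropterin on the way to tetrahydrobiopterin, the cofactor of the aromatic amino acid hydroxylases. It was at 44.0, 45.5 and 48.3 TPM in brachial Het and at 28.8, 30.2 and 31.5 in brachial KO libraries. In lumbar cords it was at 40.7, 42.4 and 42.7 TPM in Het and at 32.9, 34.1 and 33.7 in KO. *Pts* fell by 0.46 ± 0.06 (SE) on the log2 scale (limma, adjusted p = 0.0202), with no overlap of the genotypes at either level. Its adjusted p ranged from 0.00694 to 0.242 over the alternatives, with the call kept in 18 of 27. The brachial effect of -0.61 was larger than the lumbar effect of -0.32, a difference of 0.29 (95% interval 0.10 to 0.48) that did not pass the adjusted test between levels (limma, adjusted p = 0.789).

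*Gm22513* was at 27.8, 27.4 and 25.2 TPM in brachial Het and at 12.3, 13.8 and 16.6 in brachial KO libraries, and at 29.7, 26.3 and 27.8 in lumbar Het and 15.9, 19.2 and 21.8 in lumbar KO libraries. It fell by 0.74 ± 0.10 (SE) on the log2 scale (limma, adjusted p = 0.0259). Genes of small nuclear RNAs have near-identical copies elsewhere in the genome, and how reads were shared among copies is not given in the sources used here, so this value is uncertain. Its adjusted p ranged from 0.01 to 0.325 over the alternatives.

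The sequences just upstream of the transcription starts of the protein-coding genes that fell are shown because LIM homeodomain factors bind DNA with a TAAT core. Of the 4 genes, 3 had an entry in the RefSeq promoter table of GRCm38.p6, and *Ntf3* had separate entries for a pair of starts. Each line gives the 250 bases before the start, 5′ to 3′ on the strand of the gene, with matches to TAATTA or TAATTG on either strand in capitals. The positions are chr16:27370240-27370489 for *Uts2b*, chr9:50528657-50528906 for *Pts*, and chr6:126166745-126166994 and chr6:126164961-126165210 for *Ntf3*, all on the minus strand.
*Uts2b*: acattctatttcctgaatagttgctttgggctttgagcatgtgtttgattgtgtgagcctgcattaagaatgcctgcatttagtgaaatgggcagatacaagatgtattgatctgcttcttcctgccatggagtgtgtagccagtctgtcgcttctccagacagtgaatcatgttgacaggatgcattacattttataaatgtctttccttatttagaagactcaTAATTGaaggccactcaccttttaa
*Pts*: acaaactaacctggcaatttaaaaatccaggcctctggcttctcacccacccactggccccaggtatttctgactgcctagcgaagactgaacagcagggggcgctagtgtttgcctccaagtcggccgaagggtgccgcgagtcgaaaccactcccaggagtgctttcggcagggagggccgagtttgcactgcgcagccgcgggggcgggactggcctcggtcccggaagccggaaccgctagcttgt
*Ntf3*, start 1: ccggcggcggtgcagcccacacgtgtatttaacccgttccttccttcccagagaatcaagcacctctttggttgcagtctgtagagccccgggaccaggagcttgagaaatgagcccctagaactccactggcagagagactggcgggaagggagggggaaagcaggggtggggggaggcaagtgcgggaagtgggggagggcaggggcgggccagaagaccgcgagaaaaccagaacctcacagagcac
*Ntf3*, start 2: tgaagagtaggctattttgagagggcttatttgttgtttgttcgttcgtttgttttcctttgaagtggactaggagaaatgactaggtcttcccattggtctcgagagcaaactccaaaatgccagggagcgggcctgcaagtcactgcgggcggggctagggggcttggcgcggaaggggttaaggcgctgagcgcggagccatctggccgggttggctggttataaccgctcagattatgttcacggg
The *Uts2b* sequence held a single match, TAATTG, which began 25 bases before the start. The other 3 sequences held neither set of letters. At least one of these motifs was present in 11.3% of the 32851 promoter windows of this length and in 6.39% of the 13732 windows of tested genes. It was present in 6.03% of the windows of genes with KO below Het at both levels and in 6.8% of those with KO above Het. A match of this kind is a description of the letters and not a binding site.

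**Figure D1:**
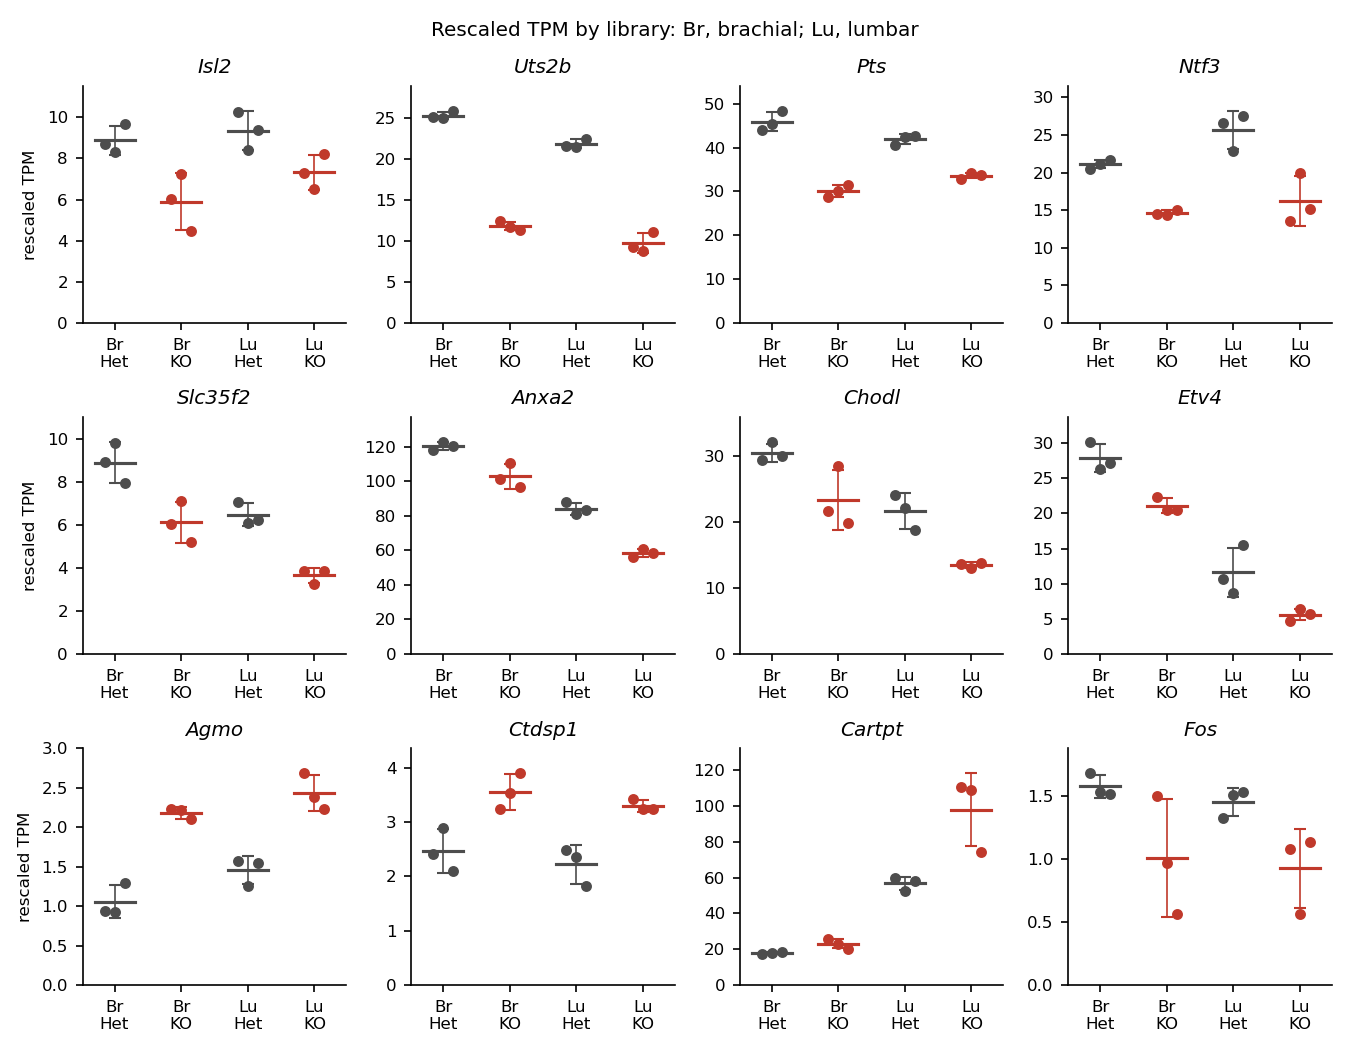
Rescaled TPM of 12 genes in each library (points), by level and genotype, with the mean (line) and SD (bar) of the 3 libraries of a group, each vertical axis starting at 0. *Uts2b*, *Pts* and *Ntf3* passed the adjusted test and show no overlap of KO with Het, while *Chodl*, *Etv4* and *Cartpt* also differ between levels within a genotype.

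None of the other genes named from here on passed the adjusted test in the comparison as reported, and their values are given as measured. The next 8 genes by p on the lower side had effects from -0.27 to -0.67, and in each the KO libraries lay below the Het libraries at both levels. *Slc35f2*, a member of solute carrier family 35, was nearest to the threshold, with an effect of -0.67 ± 0.10 (SE) and an adjusted p of 0.0512 (limma). Its brachial libraries were at 8.92, 9.81 and 7.93 TPM in Het and 6.04, 7.10 and 5.21 in KO, and its lumbar libraries at 7.08, 6.09 and 6.24 in Het and 3.85, 3.25 and 3.85 in KO. Under 7 of the 27 alternatives its adjusted p was under 0.05. *Anxa2*, which encodes the calcium-dependent membrane-binding protein annexin A2, had an effect of -0.38 ± 0.06 (SE, limma adjusted p = 0.0729). It was at 118.1, 122.4 and 120.2 TPM in brachial Het and 101.2, 110.7 and 96.6 in brachial KO libraries, and at 88.0, 81.2 and 83.1 in lumbar Het and 56.2, 60.7 and 58.4 in lumbar KO libraries. *S100a10*, whose product forms a complex with annexin A2, had an effect of -0.30, with medians of 246.7 TPM over the Het and 198.1 over the KO libraries.

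*Chodl*, which encodes the lectin-like membrane protein chondrolectin of motor neurons, had an effect of -0.54 (brachial -0.40, lumbar -0.67). It was at 29.5, 32.1 and 30.02 TPM in brachial Het and 21.7, 28.5 and 19.9 in brachial KO libraries, and at 24.2, 22.2 and 18.9 in lumbar Het and 13.7, 13.0 and 13.9 in lumbar KO libraries. Its adjusted p was 0.114 in all libraries and 0.0107 without brachial KO library 2 (limma). *Laptm4b*, a lysosomal membrane protein gene, had almost equal effects at the levels, -0.28 and -0.27. The same held for *Hacd1*, a dehydratase of very long-chain fatty acid synthesis, with -0.29 and -0.30. The effects of *Gng10*, a G protein gamma subunit gene, and of the X-linked gene *Tceal1* were both -0.29 over the levels, and that of the long noncoding RNA *2810032G03Rik* was -0.47.

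On the higher side the smallest p belonged to *Agmo*, which encodes alkylglycerol monooxygenase, an enzyme that cleaves ether lipids and uses tetrahydrobiopterin. *Agmo* was at 0.935, 0.930 and 1.29 TPM in brachial Het and 2.23, 2.22 and 2.097 in brachial KO libraries. In lumbar cords it was at 1.58, 1.25 and 1.54 TPM in Het and 2.68, 2.38 and 2.23 in KO. All KO libraries lay above all Het libraries, and the effect was 0.85 ± 0.13 (SE, limma adjusted p = 0.0684), or 0.56 with a pseudocount of 1. Its adjusted p was under 0.05 in 5 of the 26 alternatives in which it was tested, among them the fit to protein-coding genes alone. *Ctdsp1*, a small phosphatase acting on the tail of RNA polymerase II, was at 2.41, 2.90 and 2.097 TPM in brachial Het and 3.24, 3.54 and 3.90 in brachial KO libraries, and at 2.49, 2.36 and 1.82 in lumbar Het and 3.42, 3.24 and 3.23 in lumbar KO libraries. Its effect was 0.54 (brachial 0.52, lumbar 0.56), and the microRNA gene *Mir26b* lies inside it on the same strand.

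*Cartpt*, the precursor of the neuropeptide CART, had an effect of 0.56 and opposite sign to *Uts2b*. It was at 17.3, 17.9 and 18.6 TPM in brachial Het and 25.7, 23.1 and 20.4 in brachial KO libraries. In lumbar cords it was at 59.8, 52.4 and 58.1 TPM in Het and 110.5, 108.8 and 74.3 in KO. The other protein-coding genes of the 12 with the smallest p were *Spata13* (0.38), *Akap10*, an anchoring protein of protein kinase A (0.35), and *Anp32e*, a chaperone of the histone variant H2A.Z (0.24). The groups of *Akap10* overlapped in lumbar and those of *Anp32e* in brachial cords, and the effect of *Akap10* was 0.10 on coverage in place of TPM. The remaining 6 were noncoding. *Gm24507* (0.99), *Mir6975* (0.91), *Gm23138* (1.59) and *Gm23344* (0.69) are small RNA genes that lie on the same strand inside *Tmem167*, *Ddx39b*, *Tut4* and *Rpl4*, so reads of a host transcript can enter their values. *Gm23138* had a mean of 0.474 TPM in Het and 1.57 in KO libraries and reached the minimum of 1 TPM only through the KO libraries. Its effect ranged from 0.79 to 1.81 over the alternatives, and its brachial groups overlapped. *Gnasas1* (0.35) lies antisense to *Gnas*, and *2900092D14Rik* (0.42) is a long noncoding RNA that overlaps another gene on its strand.

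A count that uses no model gave a wider set. In 207 genes (1.39%) all 3 KO libraries were below all 3 Het libraries at both levels, and in 115 (0.77%) they were above. Most of these differences were small: 17 of the 207 and 12 of the 115 had an effect beyond 0.5 in size. Among the 17 were the motor pool genes *Etv4* and *Barx2*, the intermediate filament gene *Prph*, the potassium channel gene *Kcnj12* and the immediate early gene *Fos*. *Kcnj12* (mean 1.31 TPM in Het, 0.851 in KO) and *Fos* (1.51 and 0.967) reached the minimum of 1 TPM only through the Het libraries, and with a pseudocount of 1 their effects were -0.32 and -0.37. Besides genes already named, the 12 on the higher side included the cation channel gene *Trpc5* (0.53), the prostaglandin D synthase gene *Hpgds* (0.53) and the cyclin gene *Ccnd2* (0.54), of which the first 2 were named after their values were seen. With TPM as deposited 21 genes were below and 255 above at both levels.

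Gene by gene, the effects at the levels were only loosely alike. They had the same sign in 5021 genes on the lower and 4066 on the higher side, and opposite signs in 5848. Across the 14940 genes the correlation of the brachial with the lumbar effect was r = 0.20 (Spearman's rho 0.26), where genes are not independent replicates and share the libraries, their depth and their base composition. The difference of the effect between levels passed the test in 0 genes (limma interaction, adjusted p under 0.05, smallest adjusted p 0.637). At an unadjusted p under 0.05 the interaction was called in 673 genes, or 4.5%. Among the named genes *Pts*, *Anxa2*, *Etv4* and *Sema3e* were in that set. *Sema3e*, a repulsive guidance cue, had an effect of 0.05 in brachial and -0.80 in lumbar cords.

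**Figure D2:**
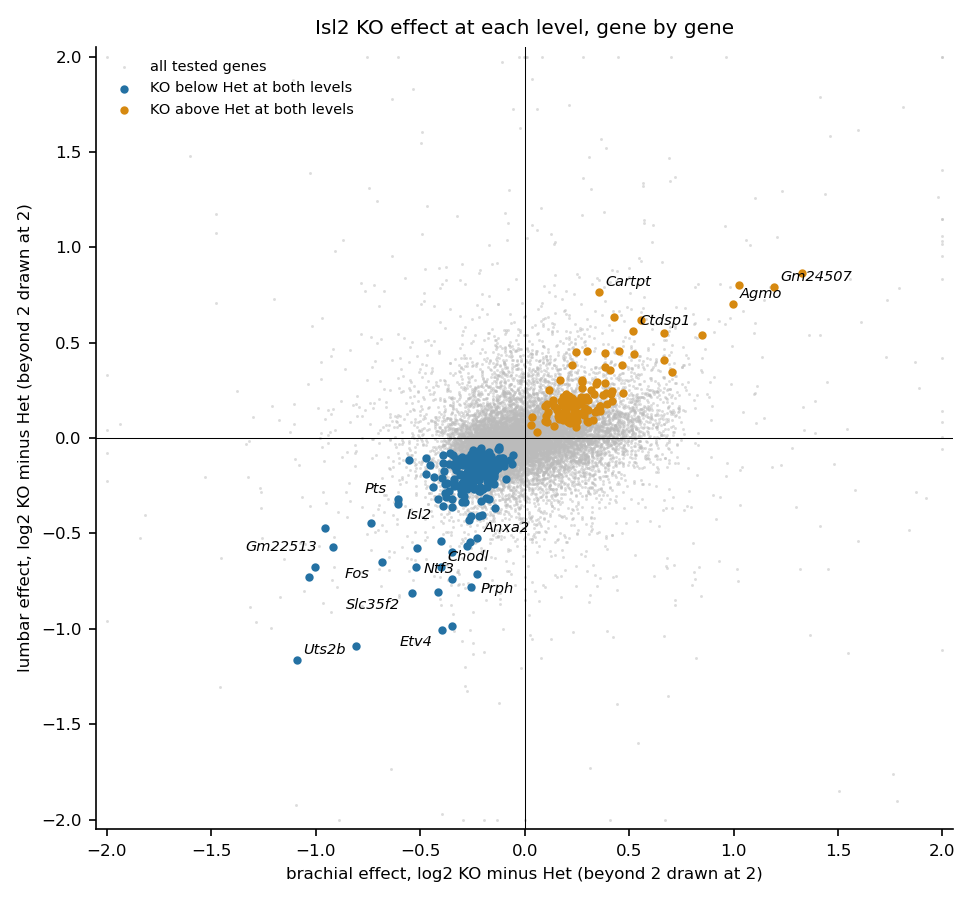
Effect of the *Isl2* KO at the brachial level (horizontal) against the lumbar level (vertical), as log2 KO minus Het, for the 14940 tested genes (grey), with genes whose KO libraries lie below (blue, 207) or above (orange, 115) the Het libraries at both levels. Effects beyond 2 are drawn at 2, *Uts2b* lies far to the lower left at -1.09 and -1.17, and most coloured genes lie within 0.5 of 0 on both axes.

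Motor neuron genes were described by lists. In bulk tissue, fewer motor neurons and less of a transcript per motor neuron cannot be told apart. Of the 11 tested genes of cholinergic machinery and motor neuron structure, 10 had an effect below 0 and the median was -0.19 (brachial -0.21, lumbar -0.33), against -0.01 over all genes, of which 7929 of 14940 were below 0. The median was -0.11 without lumbar Het library 1 and -0.10 with TPM as deposited. At an unadjusted p under 0.05, 5 were lower and 0 higher, where over all genes 8.63% were lower and 6.14% higher. There were 4 to 6 lower when single libraries were left out and 3 with TPM as deposited. Against the mean of the lumbar Het libraries, the median of the list stood at -0.23, -0.12 and -0.57 in lumbar KO libraries 1, 2 and 3, and library 3 also had the lowest *Chat*, *Mnx1* and *Slc18a3*. *Prph*, the gene of peripherin, was at 318.4, 312.5 and 295.5 TPM in brachial Het and 263.5, 290.9 and 223.7 in brachial KO libraries, and at 76.3, 64.7 and 44.0 in lumbar Het and 40.4, 30.9 and 34.3 in lumbar KO libraries (effect -0.52). *Nefl*, the light neurofilament gene, had an effect of -0.35 and a median of 1310 TPM in Het and 1064 in KO libraries. *Gap43*, a growth cone gene, had an effect of -0.31, and *Chat*, the choline acetyltransferase gene, -0.30. *Slc18a3*, the vesicular acetylcholine transporter gene, and *Mnx1* had effects of -0.03 and 0.03, with Het and KO libraries overlapping widely.

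The transcription factors of motor neuron identity did not shift as a list, with 5 of 15 below 0 and a median of 0.03. *Isl1* was the second lowest of them by p, at an effect of -0.29 (brachial -0.27, lumbar -0.31) and medians of 63.0 TPM in Het and 51.0 in KO libraries. Of the 18 tested motor column and pool genes, 4 were lower (8.63% over all genes) and 2 higher (6.14%) at an unadjusted p under 0.05, and their median changed sign between brachial (0.14) and lumbar (-0.19) cords, with brachial KO library 3 (0.24) and lumbar KO library 2 (-0.21) farthest from the Het mean of their level. *Etv4*, an ETS factor of limb motor pools, was at 30.1, 26.4 and 27.1 TPM in brachial Het and 22.3, 20.5 and 20.5 in brachial KO libraries. It was at 10.6, 8.75 and 15.5 TPM in lumbar Het and 4.74, 6.37 and 5.74 in lumbar KO libraries. Its effect was -0.70 over both levels (brachial -0.40, lumbar -1.005). The difference between levels was -0.61 (95% interval -1.14 to -0.07) and did not pass the adjusted test (limma, adjusted p = 0.789). *Barx2*, a homeobox gene, had an effect of -0.67 and *Kcnip1*, a potassium channel partner gene, -0.28, and *Zeb2*, a zinc-finger factor gene, 0.21. Of 32 *Hox* genes 2 were lower (*Hoxb7* and *Hoxd11*) and 2 higher (*Hoxa3* and *Hoxc8*), counts near the shares of 8.63% and 6.14% over all genes. The median was 0.09, and it was 0.05 without lumbar Het library 3. The count of higher genes was 0 without brachial Het library 3 or lumbar KO library 1 and 5 without brachial KO library 2. *Hoxd11* passed the TPM minimum only through the lumbar libraries, since it was at 0 to 0.0529 TPM in the brachial ones, so its value is no effect common to both levels. The gene models of *Hoxa3* and *Hoxd11* overlap those of neighbouring *Hox* genes, so their values are uncertain.

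Genes of calcium-binding protein families had almost the same median effect at both levels. Of 17 tested, 16 were below 0, and the median was -0.22 (brachial -0.23, lumbar -0.22). At an unadjusted p under 0.05, 9 were lower (8.63% over all genes) and 0 higher (6.14%), 6 to 9 with single libraries left out and 3 with TPM as deposited. Besides *Anxa2* and *S100a10* they included *Anxa6* (-0.24), another annexin gene, and *Pvalb* (-0.74), the parvalbumin gene, which reached the TPM minimum only through the Het libraries, with a median of 1.31 in Het and 0.738 in KO libraries, and was at -0.39 with a pseudocount of 1. The effect of *Pvalb* was -0.28 in brachial cords, where the genotypes overlapped, and -1.20 in lumbar cords. Of the 14 tested immediate early and heat shock genes, 11 were below 0, with a median of -0.14 (brachial -0.15, lumbar -0.17), and 5 were lower at an unadjusted p under 0.05 (8.63% over all genes). That median was -0.08 without lumbar KO library 3. *Fos* was at 1.68, 1.53 and 1.52 TPM in brachial Het and 1.498, 0.964 and 0.565 in brachial KO libraries, and at 1.32, 1.503 and 1.53 in lumbar Het and 1.07, 0.566 and 1.13 in lumbar KO libraries. The effects of *Junb*, *Ier3* and *Hspa1b* were -0.41, -0.57 and -0.35. Without brachial Het library 1 the count of lower genes in this list was 3, and with TPM as deposited it was 2.

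Of 37 tested neuropeptide precursor and receptor genes 28 were below 0, with a median of -0.08 that turned to 0.01 with TPM as deposited and was -0.12 to -0.14 without brachial KO library 1, brachial KO library 2 or lumbar Het library 3. At an unadjusted p under 0.05, 10 were lower (8.63% over all genes) and 2 higher (6.14%). The count of lower genes was 5 without brachial KO library 3 or lumbar Het library 2, 6 without brachial Het library 2, brachial Het library 3 or lumbar Het library 1, and 4 with TPM as deposited. *Uts2b* was the only one past the adjusted test. *Adm*, the adrenomedullin gene, had an effect of -0.52. *Scg5*, the gene of the secretory chaperone 7B2, had an effect of -0.64 but overlapping brachial groups, at 113.8, 222.8 and 239.2 TPM in Het and 116.0, 102.6 and 168.1 in KO. Its lumbar libraries were at 205.1, 218.1 and 214.8 TPM in Het and 100.2, 190.7 and 106.5 in KO. In the neurotrophin and GDNF family, 2 of 15 were lower (*Ntf3* and the GDNF-family receptor gene *Gfra4*, -0.31) and 1 higher (the sorting receptor gene *Sort1*, 0.17), counts near the shares of 8.63% and 6.14% over all genes, and the median was 0.00.

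Below 0 in the axon guidance lists were 8 of 30 semaphorin and plexin genes, 4 of 21 Eph and ephrin genes and 3 of 18 Slit, Robo and netrin genes, and the medians of these lists were 0.05, 0.05 and 0.10. None of the 3 medians changed sign in the alternatives run, and with single libraries left out they ranged from 0.03 to 0.09, from 0.02 to 0.08 and from 0.06 to 0.16. The counts below 0 then ran from 5 to 12, from 2 to 8 and from 2 to 5, lowest without lumbar Het library 1 in each list, and highest without brachial Het 1, brachial Het 3 or brachial KO 3 for the first, lumbar Het 2 for the second and lumbar KO 1 for the last. They were 0.19, 0.11 and 0.25 in brachial cords, against -0.02, 0.02 and -0.03 in lumbar cords. For the semaphorin and Slit lists the brachial values came from brachial KO libraries 2 (0.23 and 0.28) and 3 (0.27 and 0.51), while brachial KO library 1 (0.03 and 0.07) was below brachial Het library 2 (0.09 and 0.13). *Plxna2* (0.37), *Plxnb1* (0.23) and *Efnb2* (0.25), guidance receptor and ligand genes, and *Robo3* (0.25) and *Dcc* (0.44), receptor genes of commissural axons, were higher at an unadjusted p under 0.05. These were 2 of 30, 1 of 21 and 2 of 18 genes of the lists, near the 6.14% over all genes, and with single libraries left out the counts ran from 0 to 8, 0 to 1 and 1 to 5, at 8 and 5 without lumbar Het library 1 and at 0 and 1 without brachial Het library 3 for the first and last list. *Plxnb1* was at 0.16 without brachial KO library 3. Potassium channel genes (41 tested) and glutamate receptor genes (22 tested) had brachial medians of 0.18 and 0.17 and lumbar medians of -0.14 and -0.19. Single libraries stood apart here: against the Het mean of their level, brachial KO library 2 was at 0.32 and 0.43 and lumbar KO library 2 at -0.42 and -0.46, while the other KO libraries lay between -0.12 and 0.14. Of 22 glutamate receptor genes 2, and of 22 GABA, glycine and acetylcholine receptor genes 2, were higher at an unadjusted p under 0.05, near the 6.14% over all genes, and 1 of the latter was lower (8.63%). The 4 higher genes were called by their effect over both levels, so their sign at each level is not separate evidence. They were *Glra1* (brachial 0.69, lumbar 0.26) and *Grin2c* (0.82 and 0.79), which encode subunits of glycine and NMDA receptors, and *Chrna4* (0.43 and 0.11) and *Grm8* (0.31 and 0.53), an acetylcholine and a glutamate receptor gene. The genotypes overlapped in lumbar cords for *Glra1*, *Grin2c* and *Chrna4*, and in brachial cords for *Grm8*. *Glrb*, a glycine receptor subunit gene, was below 0 at both (-0.25 and -0.22). Of the 13 cadherin genes of pool sorting, *Cdh6* (0.27) was higher and *Cdh22* (-0.17, or -0.10 without lumbar KO library 3) lower, which is near the shares of 6.14% and 8.63% over all genes.

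Lists outside motor neurons were described in the same way. All 32 cell cycle genes had an effect above 0, with a median of 0.18 that was 0.03 in brachial and 0.35 in lumbar cords. The median was 0.11 without lumbar Het library 1 and 0.29 without brachial KO library 2. Among them 4 were higher at an unadjusted p under 0.05 (*Mki67* 0.48, *Ccnd2* 0.54, *Plk1* 0.21, *Cenpe* 0.32), against 6.14% over all genes. That count was 20 without brachial KO library 2, 9 without brachial Het library 1, 22 with TPM as deposited, and 2 without any of brachial Het 2, brachial KO 1, brachial KO 3, lumbar Het 1, lumbar Het 3 or lumbar KO 3. *Ccnd2* was at 9.21, 7.79 and 8.14 TPM in brachial Het and 9.64, 10.8 and 22.8 in brachial KO libraries, and at 9.21, 11.3 and 14.4 in lumbar Het and 15.1, 15.5 and 15.1 in lumbar KO libraries, and its effect was 0.35 without brachial KO library 3. Markers of red blood cells were above 0 in 12 of 12 genes, with a median of 0.43 (brachial 0.49, lumbar 0.39) that was 0.26 without brachial KO library 3. Against the mean of the brachial Het libraries, that library stood at 1.26 and the other brachial KO libraries at -0.04 and 0.29. Of these markers 5 were higher at an unadjusted p under 0.05 (6.14% over all genes), *Hba-x* (0.70) and *Alas2* (0.61) among them, which were at 0.45 and 0.41 without that library. The alpha-globin genes *Hba-a1* (0.44) and *Hba-a2* (0.43) are near-identical copies whose reads may have been divided between them. The erythroid count was 0 without brachial Het library 1 or lumbar Het library 1, and 1 without brachial KO library 3, lumbar KO library 2 or lumbar KO library 3. The summed erythroid level was 2530 to 4280 TPM in Het and 3250 to 7180 in KO libraries, and its part in the other differences was not tested.

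Of 81 ribosomal protein genes 80 were below 0, with a median of -0.14 that was -0.26 in brachial and -0.01 in lumbar cords. At an unadjusted p under 0.05, 10 were lower (among them *Rpl15*, -0.18, and *Rps7*, -0.23), where over all genes 8.63% were. This count was 54 without lumbar Het library 1, 39 without lumbar KO library 2, 22 without brachial KO library 1, and 2 to 6 without any of the other libraries except brachial Het library 2 (9). It was 1 with TPM as deposited and 25 with quantile normalization. Of 20 pan-neuronal genes 6 were lower (*Nsg1* -0.17, *Stmn3* -0.21), against 8.63% over all genes, and their median of -0.03 turned to 0.06 with TPM as deposited and 0.01 with quantile normalization. *Fabp7*, a radial glia gene listed for both progenitors and Schwann cells, had an effect of -0.25 and was the only gene of either list called lower. In the dorsal interneuron list *Isl1* alone was called, and in the preganglionic list *Zeb2* alone. The 5 abundant small structural RNAs were below 0, with a median of -0.24, and none was called. With quantile normalization the median was 0.00. That median was -0.11 without brachial KO library 2 and -0.16 without brachial Het library 3. The brachial median was -0.51, with brachial KO library 2 at -1.0 and the others at -0.17 and -0.08 against the brachial Het mean, and the lumbar median was 0.01. No gene of the ventral interneuron, floor plate, endothelial, microglial, mesenchymal, muscle, sensory or sex-linked lists was called in either direction at an unadjusted p under 0.05 (limma).

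**Figure D3:**
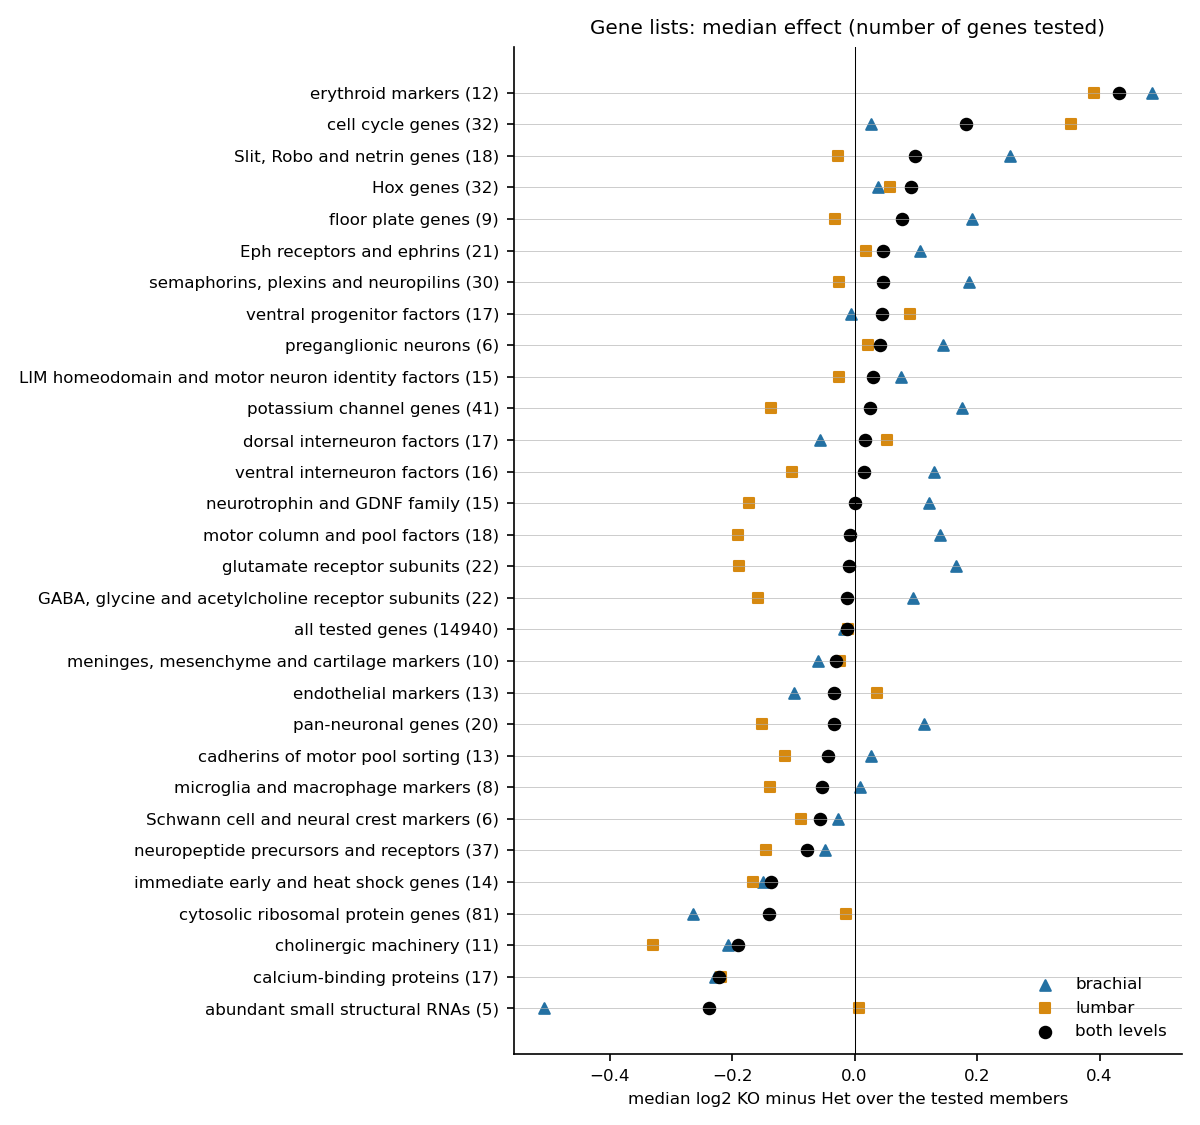
Median effect (log2 KO minus Het) over the tested members of the gene lists shown, at the brachial level (triangles), the lumbar level (squares) and both together (circles), with the number of tested genes in parentheses. The medians of calcium-binding, cholinergic, and immediate early and heat shock genes lie below 0 at both levels and that of erythroid markers above 0. Cell cycle genes (0.03 and 0.35) and ribosomal protein genes (-0.26 and -0.01) differ by level. The cholinergic list also holds genes of motor neuron structure.

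The genes nearest to *Isl2* on its chromosome were looked at because a targeted allele is inherited together with its neighbours. *Isl2* lies at chr9:55538677-55547667 (GRCm38, plus strand). Relative to the start of *Isl2*, the start of *Pts* lies at -5.01 Mb and that of *Slc35f2* at -1.77 Mb. The start of *Anxa2* lies at 13.9 Mb. *Pts*, *Slc35f2* and *Anxa2* were among the lower genes of smallest p named above. Within 5 Mb of *Isl2*, 17 of 99 tested genes were lower at an unadjusted p under 0.05, or 17.2% (8.63% over all genes), and 6 were higher, or 6.06% (6.14%). Their median was -0.02, near the -0.01 of all genes, and with *Isl2* itself left out 3 had KO below and 4 KO above Het at both levels. From 5 to 10 Mb 5 of 71 were lower (7.04%), from 10 to 20 Mb 17 of 146 (11.6%), and beyond that 44 of 507 (8.68%). Chromosome 9 as a whole had 10.2% of its genes lower, a share within the 6.04% to 10.7% of the other autosomes and the X chromosome. *Acat1*, the gene of a mitochondrial thiolase, lay at -1.93 Mb with an effect of -0.20 and KO below Het at both levels. *Zc3h12c*, at -3.37 Mb, had an effect of 0.31 with KO above Het at both levels.

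The study lists 9 genes as lower at both levels, which were chosen on these libraries and are therefore not independent evidence of direction. Besides *Isl2*, 4 of the 9 lay on chromosome 9, and they were *Slc35f2*, *Layn* (-4.46 Mb), *2310030G06Rik* (-4.79 Mb) and *Plet1* (-5.04 Mb), of which the last 3 were under the TPM minimum and were not tested. *Plet1* was at 0.141, 0.209 and 0.258 TPM in brachial Het and 0.193, 0.15 and 0.0822 in lumbar Het libraries, and was listed at 0 in all 6 KO libraries. *Layn*, the gene of the hyaluronan receptor layilin, was at 1.72, 1.65 and 1.29 TPM in brachial Het and 0.723, 0.606 and 0.526 in brachial KO libraries, and at 0.45, 0.518 and 0.655 in lumbar Het and 0.152, 0.172 and 0.232 in lumbar KO libraries. *2310030G06Rik* was at 1.26, 1.59 and 1.07 TPM in brachial Het and 0.383, 0.55 and 0.526 in brachial KO libraries, and overlapped between genotypes in lumbar cords. All 6 of the tested genes were lower at an unadjusted p under 0.05, with *Kcnj12*, whose KO libraries were under the minimum on average, at -0.61. Whether the deletion itself, the lack of Isl2 protein or the haplotype around the allele sets the levels of these neighbours cannot be told apart in this design.

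**Figure D4:**
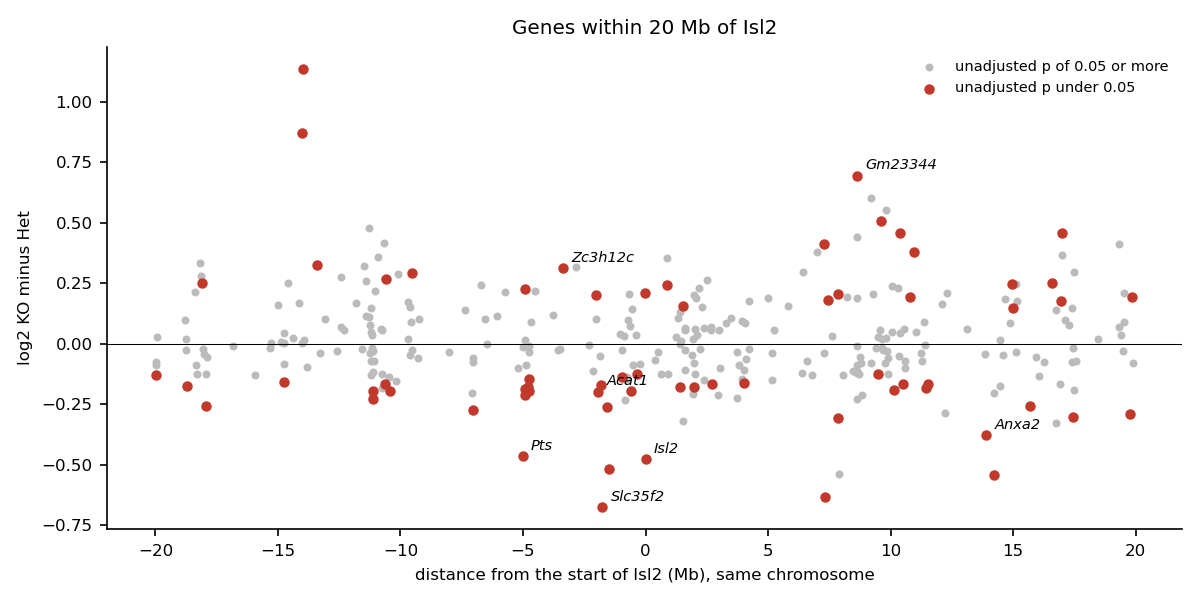
Effect (log2 KO minus Het) of tested genes within 20 Mb of *Isl2* against the distance of their start from that of *Isl2*, with genes at an unadjusted p under 0.05 in red. *Isl2* (-0.48), *Slc35f2* (-0.67) and *Pts* (-0.46) lie among the lowest points, and genes of both directions occur on either side.

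The effects were also ordered by the length of the gene on the genome. The protein-coding genes that were lower at an unadjusted p under 0.05 had a median span of 13 kb, those that were higher 56.8 kb, and all tested protein-coding genes 25.1 kb. The protein-coding genes were divided by span into 5 groups of about equal number, and the median effect went from -0.08 in the shortest group to 0.07 in the longest. Of the shortest group 17.1% were lower and 1.51% higher, and of the longest group 3.94% were lower and 11.3% higher. The order was steep in brachial cords (-0.12 to 0.15) and nearly flat in lumbar cords (-0.03 to 0.00). Against the mean of the brachial Het libraries, the longest group stood at 0.04, 0.18 and 0.23 in brachial KO libraries 1, 2 and 3, and the Het libraries themselves ran from -0.05 to 0.06. The share of the shortest group that was lower was 10.9% without brachial KO library 3 and 11% without brachial Het library 3. The share of the longest group that was higher was 5.37% without brachial Het library 3, 5.65% without brachial KO library 3 and 22.4% without lumbar KO library 2. The part of gene span in the list medians was not tested.

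**Figure D5:**
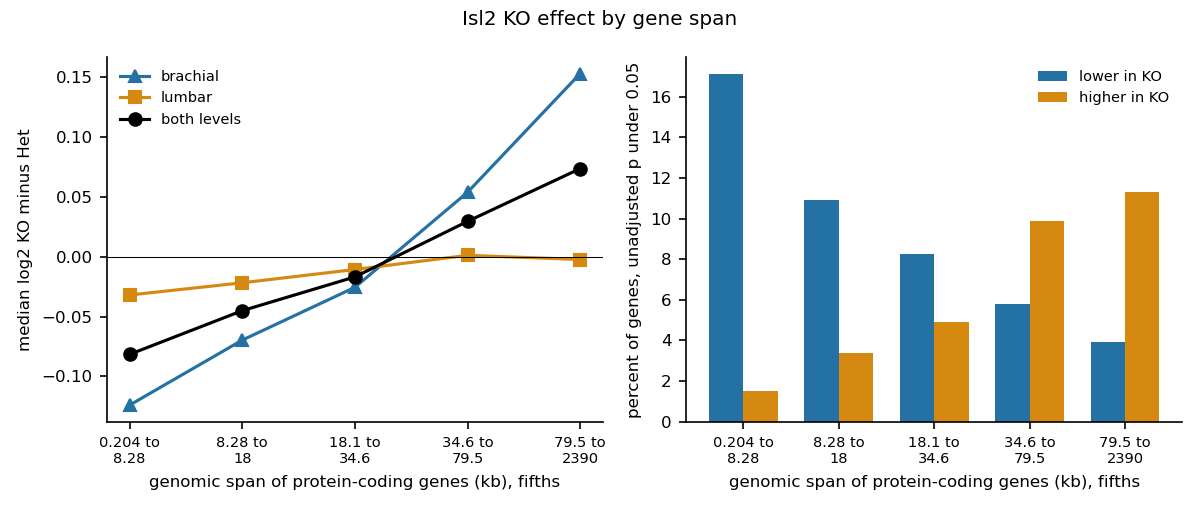
Left, the median effect (log2 KO minus Het) of protein-coding genes in 5 equal groups by genomic span (kb) for the brachial level, the lumbar level and both. Right, the percentage of each group that was lower or higher in KO at an unadjusted p under 0.05. The median of both levels goes from -0.08 to 0.07, and the slope lies in the brachial libraries.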

How the data were processed

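Transcript levels were read from 12 libraries, 3 per genotype and level. According to the submitters' processing notes, the tools included Trimmomatic 0.38, HISAT2 2.1.0, Bowtie2 2.3.4.1 and StringTie 2.1.3b, with the mm10 build. The authors deposited TPM per gene, which add up to the same total in each library. The authors also deposited FPKM and mean coverage per base for the same genes, and the ratio of these gave the aligned bases per library. No file holds counts, so counting error could not be given. The study's methods name a stranded library kit, but whether strand was used in quantification is not given in the sources used here.

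RefSeq (GRCm38.p6) supplied symbols for 45679 of the 45777 gene identifiers. Size factors (median of ratios) brought the libraries to 1 scale. Genes with a mean of at least 1 TPM were kept, and limma 3.58.1 (R 4.3.3) was run on log2 of the rescaled TPM plus 0.1, with terms for genotype and level and a trended eBayes. Benjamini-Hochberg adjustment was over all 14940 genes. An interaction term gave the effects per level and their difference. On simulated data for this comparison (14940 genes), 57 of 100 genes changed by 0.5 and 95 of 100 changed by 1 on the log2 scale were recovered. The simulated noise was drawn independently for each gene, so shared deviations of whole libraries were left out and these counts may be too high.

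The genes named are *Isl2*, the 12 genes of smallest p in each direction, up to 4 members of smallest p in each list, the study's 9 genes and neighbours of *Isl2*, defining motor neuron markers, and the few others that the text marks. The members and lists were chosen with earlier results of these data known. Lists were described by counts and medians, with no test of their own. Alternatives changed the pseudocount, filter, scaling, unit, trend, block, sex term or gene class, or left out a library. Python 3.11.15, pandas 2.3.3 and matplotlib 3.10.9 were used for tables and plots.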

Additional observations from a re-analysis of the deposited data

How the results depend on the processing

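Of 27 alternatives, 25 to 27 could be run for each of 77 genes named by the rule, and none of these 77 changed direction in them. *Uts2b* passed the adjusted test in all 27. The effect of *Isl2* ranged from -0.78 (coverage) to -0.38 and did not pass in any. The 4 lower genes became 1 with TPM as deposited, 1 without the trend in eBayes, 1 with the replicate block as a fixed term and 1 on means of same-numbered libraries, and 1 to 5 when single libraries were left out. With same-numbered brachial and lumbar libraries of a genotype as a random replicate block 5 were lower. Correlations of the deviations of same-numbered libraries ran from -0.3 to 0.48 between groups, and Y-linked transcripts matched in 3 of 6 brachial and lumbar pairs. The numbers therefore could not be used to pair the samples, and libraries of 1 embryo may still be among them. The count was 1 without brachial Het library 1, 2 or 3, lumbar Het library 3 or lumbar KO library 1, and 2 without lumbar Het library 1. The 0 higher genes became 1 with a pseudocount of 1, 1 with a minimum of 0.5 TPM, 1 with coverage, 1 without the trend, 1 for protein-coding genes, and 0 to 1 with single libraries left out (1 without lumbar KO library 3). Genes with KO below Het at both levels numbered 21 with TPM as deposited and 217 to 477 with a library left out, with over 1.5 times the count without brachial KO library 1, lumbar Het library 1 or lumbar KO library 2. Genes with KO above Het numbered 255 with TPM as deposited and 120 to 388 with a library left out (over 1.5 times the count for each library but brachial Het 2, brachial Het 3, brachial KO 3 and lumbar Het 3), where fewer libraries make separation easier. An effect that differed between levels was called in 0 genes, in 1 with no filter, and in 0 to 1 with a library left out (1 without brachial Het 3, brachial KO 1 or brachial KO 2), alternatives that were added for this result after seeing the data. TPM as deposited moved the median of all genes from -0.01 to 0.08. Of the 33 list medians 16 took the opposite sign under at least 1 alternative. Those of the list of cholinergic and motor neuron structure genes, and of calcium-binding, immediate early, ribosomal, cell cycle and erythroid genes, did not. The cause of these changes was not tested, and depth per gene cannot be read from values without counts.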
